A study of Mus musculus with 24 samples.

Results

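The nuclear receptors of the peroxisome proliferator-activated receptor (PPAR) family, their coactivators and genes that they control by fatty acid supply were examined for H3K9ac, an acetyl mark on the tail of histone H3 found at active promoters, in spheroids of the mouse mammary carcinoma line 4T1. The 9 genes were taken by name: the receptors Ppara, Ppard and Pparg, the coactivators Ppargc1a and Ppargc1b, and the target genes Pdk4, Angptl4, Plin2 and Ucp2. They were followed among the 21728 protein-coding genes of GENCODE vM21. A promoter was the stretch reaching 1 kb to either side of each transcription start site (TSS) in the annotation, and a gene was called in a library if a deposited peak overlapped such a window.

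The 12 H3K9ac libraries formed 4 groups of 3 replicates, all of spheroids collected on day 5. Scramble spheroids carried a control guide and were grown with 75 µM palmitate. CPT1a knockout spheroids lacked carnitine palmitoyltransferase 1a, the enzyme that commits long-chain fatty acids to mitochondrial import, and KAT2a knockout spheroids lacked a histone acetyltransferase of the SAGA complex. Both were likewise grown with 75 µM palmitate. The remaining group, CPT1a knockout with acetate, received 5 mM acetate, a substrate for acetyl-CoA synthesis, for which the labels give acetate alone, while the study describes the comparison with and without acetate as made in the presence of palmitate. The comparisons ask how the mark responds to the loss of fatty acid import, to the loss of an acetyltransferase and to acetate. All lines carried a doxycycline-inducible Cas9 and were made stable by lentiviral guides and puromycin selection. These guides cut exons, so promoter peaks of the targeted genes do not check the knockouts. Nothing in the labels says whether the replicates of a group were separate cultures, so the p-values measure only the spread between these libraries. In pooled spheroid cells, a lower share of cells with the mark and less mark per cell cannot be told apart.

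PPARs are transcription factors that bind fatty acids and their derivatives, pair with a retinoid X receptor (RXR) and recognise a repeated half-site in the control regions of genes for fatty acid oxidation, storage and uptake. PPARα prevails in liver and other oxidative tissues, PPARγ in fat cells, and PPARδ is widely expressed. PGC-1α and PGC-1β, the products of Ppargc1a and Ppargc1b, bind these receptors and raise the transcription of mitochondrial genes.

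The libraries held 16201 to 34330 peaks on chromosomes 1 to 19 and X. The calling depth, the mean fragment coverage at which a peak list was called, was recovered from the deposited values and was 2.10 ± 0.364 in scramble, 1.503 ± 0.423 in KAT2a knockout, 1.27 ± 0.626 in CPT1a knockout and 1.34 ± 0.632 when acetate was given to the latter (SD, n = 3 each). The lowest depths were 0.554 in CPT1a knockout replicate 3 and 0.660 in CPT1a knockout with acetate replicate 2. The promoters of 5 of 5 mammary epithelial markers carried a peak in all 12 libraries. No adipocyte, leukocyte or endothelial marker was called in all 12 libraries, and 5 of 5, 3 of 4 and 3 of 3 of them were called in none, with Cd68 called in 2.

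Of the 9 genes, 4 carried a promoter peak in all 12 libraries, against 49.5% of all protein-coding genes. These were Ppard, Ppargc1b, Plin2 and Ucp2. Ppargc1a was called in 5 libraries, a class (1 to 11 libraries) that held 5.37% of genes. Ppara, Pparg, Pdk4 and Angptl4 were called in no library, as were 45.1% of genes. Within the receptor family, only Ppard was called, and within the target genes the lipid droplet protein and the mitochondrial carrier were called while the kinase and the secreted lipase inhibitor were not.

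**Figure D1:**
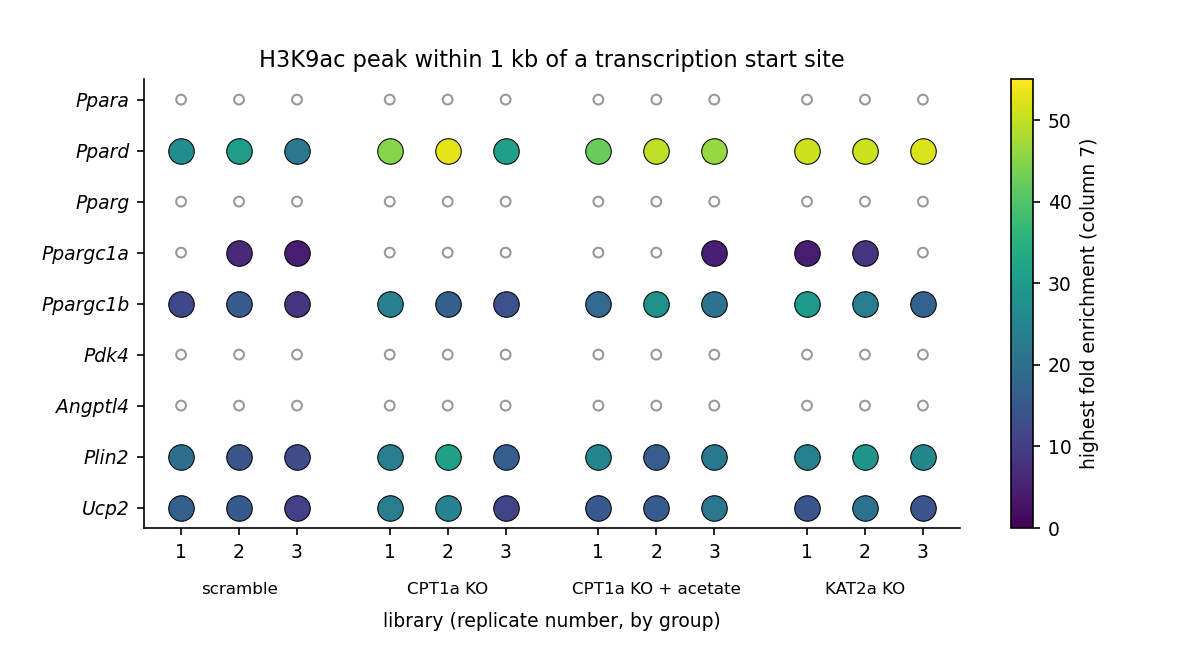
Promoter calls of the 9 genes (rows) in the 12 libraries (columns, replicates by group). Filled circles mark a peak within 1 kb of a TSS, coloured by its highest deposited fold enrichment (unitless ratio), and open circles mark no peak. Ppard, Ppargc1b, Plin2 and Ucp2 were called in all 12 libraries, Ppargc1a in 5, and the other 4 genes in none.

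The promoter sequences help to place these calls. In the mouse genome, CpG-rich promoters commonly carry active marks across cell types, whereas CpG-poor promoters tend to be tissue-restricted. The 250 bases upstream of the TSS were taken from RefSeq on GRCm38.p6, and an entry was matched for 7 of the 9 genes (not for Ppargc1b and Angptl4). Shown 5′ to 3′ on the gene's strand, with CpG dinucleotides in capitals, are both CpG-rich receptor promoters without a peak, the receptor promoter with a peak, and a CpG-poor target promoter with a peak and one without:
Ppara, chr15:85735526-85735775, plus strand, no peak: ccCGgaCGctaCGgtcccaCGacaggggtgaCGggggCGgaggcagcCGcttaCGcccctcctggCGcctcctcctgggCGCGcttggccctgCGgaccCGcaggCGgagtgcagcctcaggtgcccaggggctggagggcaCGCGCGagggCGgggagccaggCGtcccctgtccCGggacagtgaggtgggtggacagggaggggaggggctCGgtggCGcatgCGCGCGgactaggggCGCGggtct
Pparg, chr6:115360894-115361143, plus strand, no peak: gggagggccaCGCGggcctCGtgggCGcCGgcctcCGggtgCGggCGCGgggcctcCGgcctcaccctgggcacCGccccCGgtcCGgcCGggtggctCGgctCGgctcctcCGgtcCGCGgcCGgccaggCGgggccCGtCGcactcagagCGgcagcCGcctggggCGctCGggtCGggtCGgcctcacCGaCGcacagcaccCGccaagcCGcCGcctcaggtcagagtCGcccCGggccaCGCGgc
Ppard, chr17:28232504-28232753, plus strand, peak in all 12 libraries: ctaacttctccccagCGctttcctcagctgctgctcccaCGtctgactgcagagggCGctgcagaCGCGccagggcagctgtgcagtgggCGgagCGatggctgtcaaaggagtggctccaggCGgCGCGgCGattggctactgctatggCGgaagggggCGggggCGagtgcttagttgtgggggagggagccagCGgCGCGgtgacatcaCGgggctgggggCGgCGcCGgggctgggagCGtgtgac
Plin2, chr4:86670060-86670309, minus strand, peak in all 12 libraries: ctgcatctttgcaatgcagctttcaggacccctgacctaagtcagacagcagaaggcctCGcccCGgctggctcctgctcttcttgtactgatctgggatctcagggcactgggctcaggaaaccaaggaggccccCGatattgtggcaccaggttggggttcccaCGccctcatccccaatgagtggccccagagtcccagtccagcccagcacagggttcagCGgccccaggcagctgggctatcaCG
Pdk4, chr6:5496279-5496528, minus strand, no peak: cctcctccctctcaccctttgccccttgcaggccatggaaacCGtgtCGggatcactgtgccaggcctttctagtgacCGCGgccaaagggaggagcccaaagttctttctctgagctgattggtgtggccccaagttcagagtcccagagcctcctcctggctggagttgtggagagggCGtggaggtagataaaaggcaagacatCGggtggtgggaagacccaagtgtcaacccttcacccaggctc

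The observed over expected CpG ratio was 0.763 for Ppara and 0.772 for Ppard, with 27 and 22 CpGs, yet Ppard was called in all libraries and Ppara in none. Among 3454 promoters with a ratio of 0.6 to 0.8, 76.3% were called in all 12 libraries and 18.2% in none. The Pparg promoter held 38 CpGs and a ratio of 0.896. Among 2948 promoters with a ratio of 0.8 to 1, 85.7% were called in all libraries and 11.4% in none, so Pparg, without a peak, was in the smaller class for its CpG content. Plin2 and Pdk4 were nearly alike in CpG content, with 6 CpGs each and ratios of 0.256 and 0.278. Of 2679 promoters with a ratio of 0.2 to 0.4, 24.3% were called in all 12 libraries, as Plin2 was, and 69.3% in none, as Pdk4 was. Ucp2 had a ratio of 0.634 and 16 CpGs. The RefSeq start of Ppargc1a, which carried no peak, had a ratio of 0.347 and 5 CpGs.

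**Figure D2:**
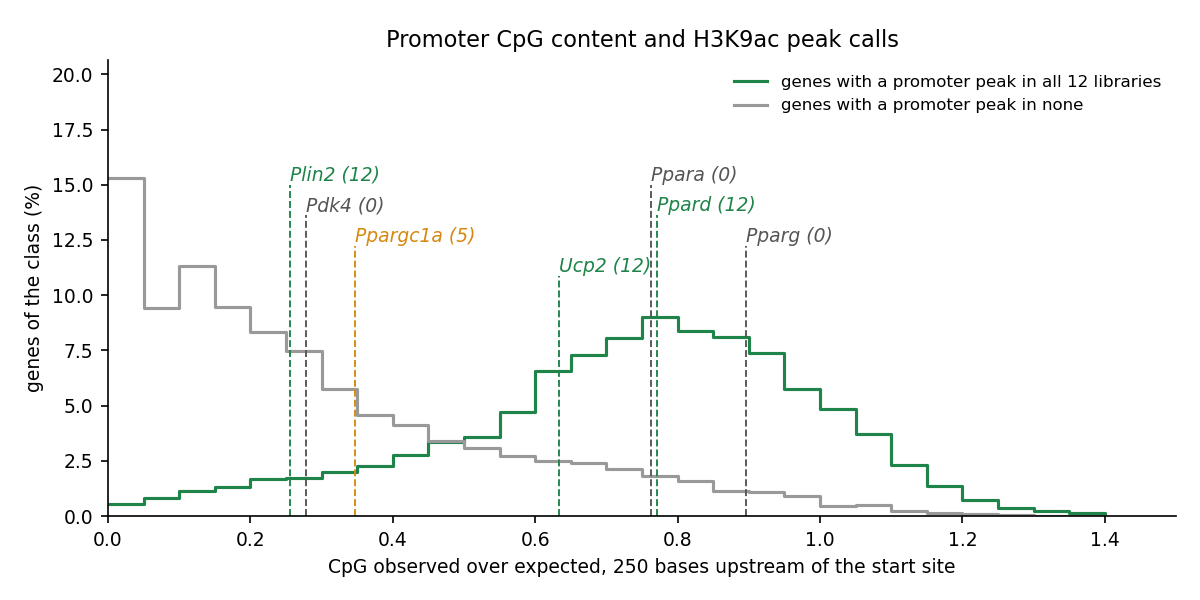
Distribution of the observed over expected CpG ratio (x axis, unitless, 250 bases upstream of the TSS) as the percentage of genes (y axis) among genes whose promoter was called in every library (green) and in none (grey), with dashed lines at 7 of the 9 genes and the number of libraries with a promoter peak in brackets. Ppara at 0.763 and Pparg at 0.896 lie under the green distribution although they were called in none, and Plin2 at 0.256 lies under the grey one although it was called in 12.

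PPARs with RXR bind a direct repeat 1, which is the half-site AGGTCA read in the same direction in both copies with 1 free base between them. Allowing at most 2 mismatches on either strand, this motif was found in the 250 bases of Plin2 alone among the 7 promoters, and in 2.88% of 16433 promoters of coding genes. It lay on the minus strand of the shown sequence and began at position -225 from the TSS, and in the direction of the gene it read GGACCCCTGACCT. The half-site AGGTCA itself was present in the Plin2 and Pparg promoters and in 12.4% of all promoters. CCAAT was present in Ppard, Pdk4 and Plin2 (36.1% of all promoters), GGGCGG in Ppara, Ppard, Pparg and Ucp2 (44.5%), and TATAAA in none of the 7 (11.9%). Within 500 bases of the median summit, taken over the libraries from the strongest promoter peak of each, the best match to the direct repeat had 3 mismatches in Ppard and Ucp2 and 4 in Plin2, while 9.82% of called promoters held a match with at most 2. The Plin2 match upstream of the TSS lies outside this stretch, whose centre is downstream of the TSS. A match is a description of letters and not a binding site.

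Ppard encodes PPARδ, lies on chromosome 17 from 28232700 to 28301474 on the plus strand, and carried the strongest peak of the set. The peak strength of a gene was the highest deposited fold enrichment over its promoter, expressed as a rank percentile within the library among the 10759 genes called in all 12 libraries (100 is the strongest). The rank of Ppard was 83.7, 89.3 and 63.1 in the scramble libraries. It was 94.7, 97.2 and 96.02 in CPT1a knockout, 94.1, 99.3 and 98.6 with acetate, and 97.2, 96.1 and 98.6 in KAT2a knockout. Thus each of the 9 other libraries ranked Ppard above every scramble library, and scramble replicate 3 was the lowest of all. The underlying fold enrichments, which are not scaled between libraries, were 26.4 ± 4.24 in scramble, 42.9 ± 11.01 in CPT1a knockout, 51.2 ± 0.580 in KAT2a knockout and 46.05 ± 3.72 with acetate (SD, n = 3 each).

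**Figure D3:**
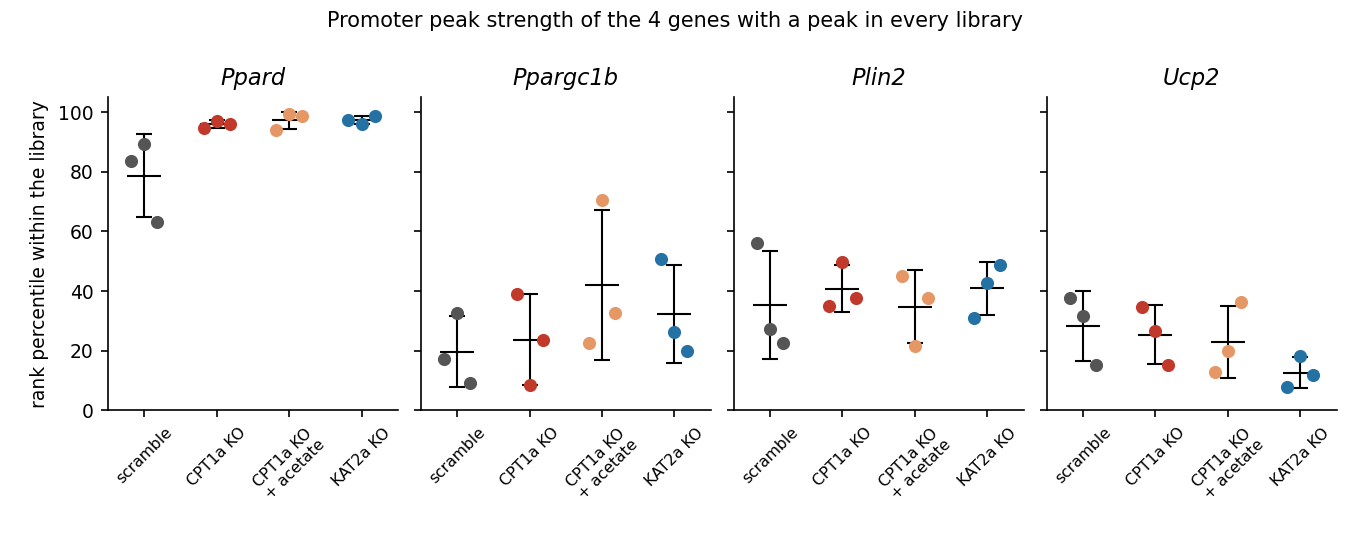
Rank percentile of promoter peak strength (y axis, 100 is the strongest of 10759 genes in that library) for the 4 genes with a peak in every library, by group (x axis). Points are libraries in replicate order, and bars give mean ± SD (n = 3). Ppard sits between 63.1 and 89.3 in scramble and between 94.1 and 99.3 in the other 9 libraries, while the groups of the other 3 genes overlap with scramble.

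Compared with scramble, the mean rank of Ppard was 17.3 points higher in CPT1a knockout, 18.6 higher in KAT2a knockout and 18.6 higher in CPT1a knockout with acetate (two-sided exact permutation test, p = 0.1 each, the smallest that 3 against 3 libraries allow). The Benjamini-Hochberg adjusted values over all 10759 genes were 0.324, 0.341 and 0.313. Ppard was the only 1 of the 4 called genes whose ranks did not overlap with scramble in any of these comparisons. Among all genes, 15.5%, 14.3% and 14.9% were separated upwards and 15.4%, 15.1% and 17.1% downwards, so 1 of 4 lies near the background. Taking the 9 other libraries together against scramble, the difference was 18.2 (exact permutation p = 0.00455, the smallest possible with 220 assignments; adjusted p = 0.0539), a separation shared by 4.51% of genes upwards and 8.13% downwards. In this comparison no gene passed an adjusted p of 0.05, and 2681 of 10759 had an unadjusted p under it. These comparisons share the 3 scramble libraries. For acetate against CPT1a knockout the difference was 1.38 (exact permutation p = 0.5), and 14.2% of genes were separated in either direction. All 6 libraries lay between 94.1 and 99.3, so near the top of the scale a further rise could hardly show. Without acetate replicate 1 the difference was 3.00, with groups that did not overlap (exact permutation p = 0.2).

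At equal calling depth, the ranks of Ppard stayed separated from scramble, with differences of 11.6, 12.5, 12.6 and, for the 9 libraries, 12.2. In this setting 17.9%, 16.5%, 17.7% and 6.32% of all genes were separated upwards, in the same order. With the GC trend of each library removed the Ppard differences were 11.1, 13.7, 11.03 and 11.95. Among these groups only the KAT2a knockout was still separated, as were 13.7% of all genes upwards. Without scramble replicate 3 the differences were 9.41 to 10.8, and ranked by -log10 p they were 8.23 to 8.53, with every group still separated from scramble.

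The Ppard locus held further acetylated stretches. The promoter domain reached from -929 to +5411 bp of the first TSS, and the median summit over all of its peaks was at +502 bp, in an intron. A second domain of 6723 bp lay inside an intron, 21912 to 28634 bp from the TSS (chromosome 17, 28254612 to 28261334), and was called in all 12 libraries with fold enrichments of 14.8 to 28.9. A weaker domain at 36375 to 38518 bp, just upstream of an internal TSS, was also called in all 12, with fold enrichments of 5.06 to 11.1. No peak fell at the last annotated TSS. Ranked among the 12098 regions called in all libraries, the intronic domain stood at 69.3, 43.3 and 49.2 in scramble, 40.6, 35.1 and 52.7 in CPT1a knockout, 54.5, 66.1 and 54.96 with acetate, and 59.5, 17.9 and 64.1 in KAT2a knockout. It therefore overlapped between scramble and each other group, unlike the promoter domain of the same gene.

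**Figure D4:**
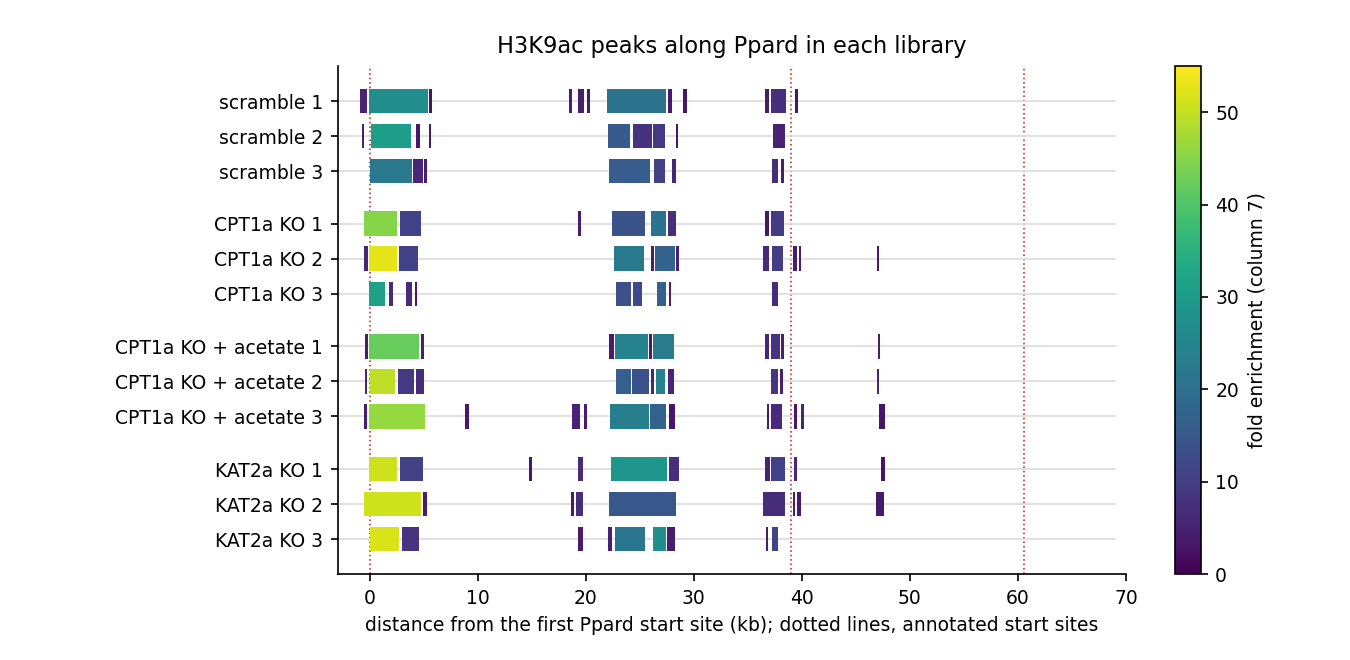
Deposited H3K9ac peaks along Ppard in each of the 12 libraries (rows), by distance from the first TSS in kb (x axis). Rectangles are peaks drawn to scale, coloured by deposited fold enrichment (unitless ratio), and dotted lines are annotated start sites. The promoter domain and the intronic domain are present in every library.

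The promoter domain differed from scramble by 13.3 points in CPT1a knockout, 14.4 in KAT2a knockout, 14.4 with acetate and 14 for the 9 libraries together, with groups that did not overlap (background among regions 16.7%, 14.6%, 15.3% and 5.27%). For the intronic domain the differences were -11.1, -6.79, 4.59 and -4.44, with overlapping groups (exact permutation p = 0.4, 0.8, 0.6 and 0.673). With acetate, the intronic domain stood 15.7 points above CPT1a knockout, with groups that did not overlap (exact permutation p = 0.1, background 5.79%). The distance in rank between the promoter and the intronic domain within a library was 29.6 ± 16.5 in scramble and 48.0 ± 15.0 in the 9 other libraries, which is not a separation (exact permutation p = 0.0955). It was 54.0 ± 9.37 in CPT1a knockout and 39.4 ± 5.42 with acetate, and these only just did not overlap (exact permutation p = 0.1). The lowest CPT1a knockout value was 44.00 and the highest acetate value 43.87, and no background share was computed for this distance. The comparison between the domains was added after their values were seen.

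Ppara encodes PPARα and lies on chromosome 15 from 85734983 to 85802819 (plus strand). Neither of its 2 promoter windows nor its body held a peak, and the nearest peak was 24749 to 49133 bp from the start sites of the first window. Pparg encodes PPARγ, the master regulator of fat cell differentiation, and lies on chromosome 6 from 115360951 to 115490399 (plus strand). None of its 4 promoter windows was called. A single intronic peak 119004 bp downstream of the first TSS was called in scramble replicate 1 and CPT1a knockout replicate 2 only, at fold enrichments of 4.75 and 4.60.

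Ppargc1a encodes PGC-1α, an inducible coactivator of fasting, cold and exercise, and lies on chromosome 5 from 51454250 to 51567726 (minus strand). Its distal TSS was called in no library. The calls came from a weak intronic peak next to the internal start sites at 51553871 to 51553922, and the promoter window was reached in scramble replicates 2 and 3, CPT1a knockout with acetate replicate 3 and KAT2a knockout replicates 1 and 2. Counting peaks just outside that window, the same 1501 bp stretch (51551796 to 51553296) was called in 10 of 12 libraries, at fold enrichments of 4.38 to 8.44. It was missing from CPT1a knockout replicate 3 and CPT1a knockout with acetate replicate 2, the libraries with the lowest calling depth. The number of calls by group, 2, 0, 1 and 2 of 3 in the order scramble, CPT1a knockout, acetate and KAT2a knockout, thus depended on where a peak ended, and the part of depth in it was not tested.

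Ppargc1b encodes PGC-1β, lies on chromosome 18 from 61298136 to 61400431 (minus strand), and had 1 promoter window that was called in all 12 libraries. The called region ran from -861 to +3385 bp of the TSS and overlapped Mir378a, a microRNA hosted in this gene. Its rank was 17.3, 32.7 and 9.16 in scramble, 39.0, 8.56 and 23.6 in CPT1a knockout, 22.8, 70.4 and 32.5 with acetate, and 50.8, 26.3 and 20.0 in KAT2a knockout. The highest value was that of the acetate group's replicate 2, which had a low calling depth, and all groups overlapped. In that library and in scramble replicate 3 the domain was split, and a piece of 1210 or 1082 bp was what overlapped the window. The differences from scramble were 3.99 in CPT1a knockout, 12.6 in KAT2a knockout and 22.1 with acetate (exact permutation p = 0.8, 0.4 and 0.3). The last was 7.90 without replicate 2 of the acetate group. Without scramble replicate 2 the acetate difference was 28.6 and that of KAT2a knockout 19.1, both with groups that did not overlap (exact permutation p = 0.2 each). Ranked by -log10 p, the acetate group did not overlap with scramble, at a difference of 28.7. With the GC trend removed the differences were -11.8 in CPT1a knockout, 5.16 in KAT2a knockout and 10.2 with acetate. Without scramble replicate 3 they were -1.31, 7.29 and 16.8 in the same order, so the sign in CPT1a knockout was not stable.

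Plin2 encodes perilipin 2, a coat protein of lipid droplets whose level follows the fatty acid load of a cell. It lies on chromosome 4 from 86648386 to 86670060 (minus strand), and the main one of its 3 promoter windows was called in all 12 libraries. Its rank was 56.1, 27.3 and 22.7 in scramble, 35.1, 49.8 and 37.6 in CPT1a knockout, 45.2, 21.4 and 37.7 with acetate, and 31.1, 42.8 and 48.8 in KAT2a knockout. The groups overlapped in every comparison, with differences from scramble of 5.47 in CPT1a knockout, 5.55 in KAT2a knockout and -0.567 with acetate (exact permutation p = 0.6, 0.7 and 0.9). These values rested on the ranking statistic and on single scramble libraries. Ranked by -log10 p they were -5.81 in CPT1a knockout, -7.24 in KAT2a knockout and 1.15 with acetate. At equal calling depth they were 0.437, -1.78 and -0.082 in the same order. Without scramble replicate 1 the differences were 15.8 in CPT1a knockout and 15.9 in KAT2a knockout, with groups that did not overlap (exact permutation p = 0.1 and 0.2). Without scramble replicate 3 they were -0.839 and -0.765.

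The width of the Plin2 peak, in contrast, did not overlap between the groups of any of the 5 comparisons made. The summed width of its promoter peaks was 4393, 3309 and 3807 bp in scramble, 2121, 1859 and 1547 bp in CPT1a knockout, 2724, 2933 and 2409 bp with acetate, and 2255, 2426 and 1971 bp in KAT2a knockout. Scramble was thus widest and CPT1a knockout narrower than the acetate group in every library. The difference in mean width from scramble was -1994 bp in CPT1a knockout, -1619 bp in KAT2a knockout and -1148 bp with acetate, and that of acetate from CPT1a knockout was 846 bp (exact permutation p = 0.1 each). For the 9 other libraries against scramble it was -1587 bp (exact permutation p = 0.00455, adjusted p = 0.0119 over 10759 genes, a threshold of 0.05 that 6120 of them passed). Narrower promoter peaks than in scramble were common among all genes: widths were separated downwards for 66.0% of genes in CPT1a knockout, 46.3% in KAT2a knockout, 54.3% with acetate and 41.3% for the 9 libraries. Over all peaks of the lists the median width ran the other way, with a group mean of 630 bp in scramble and 902 to 1054 bp in the other groups. Calling depth was highest in scramble, and its part in the widths was not tested. The wider peak with acetate than in CPT1a knockout was shared by 9.89% of genes, in groups with mean calling depths of 1.34 and 1.27. With peak lists cut to equal length, the Plin2 differences were -2080, -1712, -1148, 932 and -1647 bp, in the order given, and all stayed separated.

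**Figure D5:**
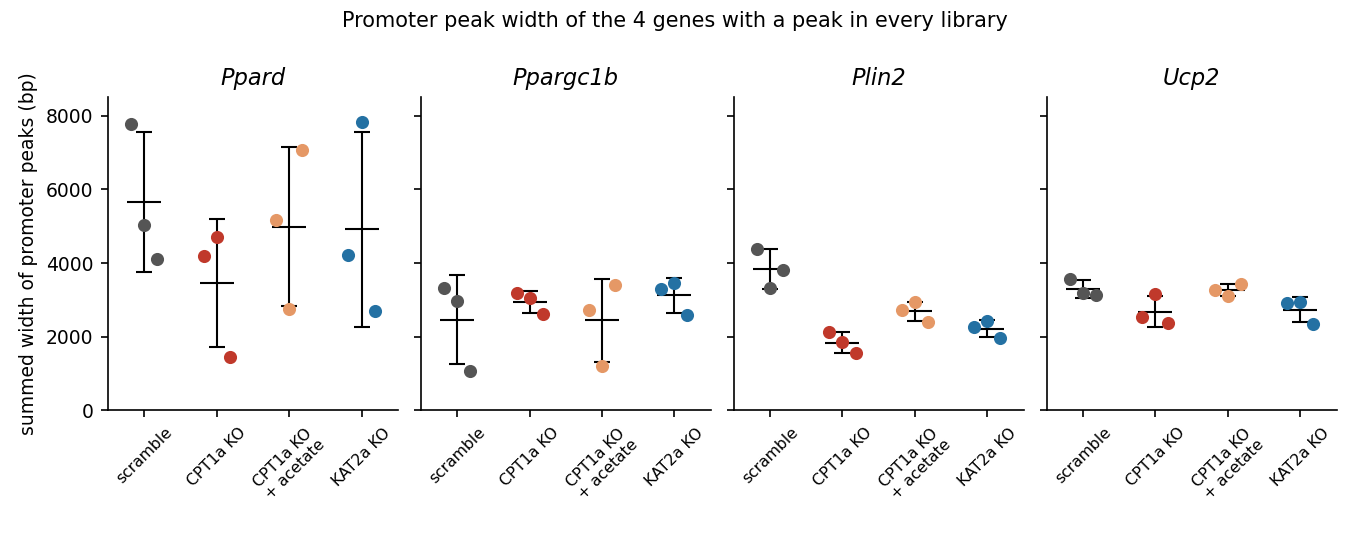
Summed width in bp (y axis) of the promoter peaks of the 4 genes with a peak in every library, by group (x axis). Points are libraries in replicate order, and bars give mean ± SD (n = 3). Plin2 spans 3309 to 4393 bp in scramble and 1547 to 2933 bp in the other 9 libraries, while Ppard varies widely within each group.

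Ucp2 encodes uncoupling protein 2, a carrier of the mitochondrial inner membrane, and lies on chromosome 7 from 100493337 to 100502020 (plus strand). Its rank was 37.8, 31.7 and 15.3 in scramble, 34.7, 26.5 and 15.1 in CPT1a knockout, 12.8, 19.8 and 36.4 with acetate, and 7.76, 18.1 and 11.8 in KAT2a knockout. KAT2a knockout held the lowest mean, with a difference of -15.7 points from scramble, but its highest library was above scramble replicate 3 (exact permutation p = 0.2). Removing the GC trend separated these groups, with a difference of -19.8. The width was 3563, 3190 and 3129 bp in scramble and 2902, 2955 and 2356 bp in KAT2a knockout, a difference of -556 bp with groups that did not overlap (exact permutation p = 0.1), which 46.3% of genes shared. With peaks within 500 bp joined the difference was -967 bp and the groups overlapped (exact permutation p = 0.2). In the other comparisons the widths of Ucp2 overlapped in the main setting. With a 2 kb window the width in CPT1a knockout was separated from scramble, at -930 bp, and with lists of equal length at -708 bp. With lists of equal length the acetate group was also separated from CPT1a knockout, at 674 bp (exact permutation p = 0.1 each).

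Ppard and Ppargc1b widths overlapped in each of the 5 comparisons, ranging from 1462 to 7837 bp and from 1082 to 3468 bp. The Ppard sum also took in peaks near its internal TSS in the libraries where they reached that window. With a 2 kb window the Ppard width in CPT1a knockout was separated from scramble, at -2088 bp (exact permutation p = 0.1). For Ppargc1b the overlap depended on how split peaks were treated. Its difference from scramble was 486 bp in CPT1a knockout and 662 bp in KAT2a knockout, but with peaks within 500 bp joined it was -947 and -719 bp, with groups that did not overlap (exact permutation p = 0.1 each), and -899 bp for the 9 libraries (exact permutation p = 0.00909). Widths that did not overlap were thus seen for 1 of the 4 called genes in each comparison except KAT2a knockout against scramble, with 2. Over all genes, widths were separated downwards from scramble for 66.0% in CPT1a knockout, 46.3% in KAT2a knockout, 54.3% with acetate and 41.3% for the 9 libraries. With acetate against CPT1a knockout, 9.89% were separated upwards. Against scramble these counts thus lay near or below the background. Over the 4 genes, the median rank difference from scramble was 4.73 in CPT1a knockout, 9.08 in KAT2a knockout and 9.03 with acetate, against 0.23, 0.11 and 0.15 over all 10759 genes. Leaving out 1 library, these medians ranged from -1.07 to 9.31, from 3.26 to 13.7 and from 1.97 to 15.4, the lowest in each case without scramble replicate 3 and the highest without scramble replicate 1. Ranked by -log10 p they were 2.71, 0.59 and 4.84. The median width difference was -1303, -644 and -344 bp, against -932, -590 and -685 bp over all genes. For acetate against CPT1a knockout, the medians were -0.54 and -0.48 points in rank and 712 and 219 bp in width.

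Pdk4 encodes a kinase that shuts pyruvate out of mitochondrial oxidation when fatty acids are burned, and Angptl4 a secreted inhibitor of lipoprotein lipase. Pdk4 lies on chromosome 6 from 5483351 to 5496309 (minus strand) and Angptl4 on chromosome 17 from 33773750 to 33781830 (minus strand). No library called a peak in their promoters or bodies. The nearest peak was at least 52217 bp from the Pdk4 start sites and at least 17438 bp from the nearer Angptl4 start sites. The other kinases of the family, Pdk1, Pdk2 and Pdk3, were called in all 12 libraries.

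Peaks inside the bodies of the 9 genes, outside their promoter windows, covered 8.50 ± 2.56 kb in scramble, 7.57 ± 2.20 kb in CPT1a knockout, 9.18 ± 1.28 kb in KAT2a knockout and 9.18 ± 0.402 kb with acetate (SD, n = 3 each), most of it in Ppard. The groups overlapped.

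The wider pathway was read from lists of named genes. Of 18 PPAR partners and coregulators, 17 were called in all 12 libraries and 1, Rxrg, in none, beside 49.5% and 45.1% of all protein-coding genes. Among the 17, ranks were separated from scramble upwards for 5 and downwards for 1 in CPT1a knockout, 6 and 3 in KAT2a knockout, 6 and 1 with acetate, and 4 and 1 for the 9 libraries. Among all genes the shares were 15.5% and 15.4%, 14.3% and 15.1%, 14.9% and 17.1%, and 4.51% and 8.13%. With acetate against CPT1a knockout, 0 were higher and 6 lower, beside 5.46% and 8.70% of all genes. Genes separated in the same direction in the 3 comparisons with scramble were Rxra, the RXRα partner of the PPARs, the coactivators Ncoa1, Ncoa2 and Pprc1 (upwards), and the corepressor Nrip1 (downwards). These comparisons share the scramble libraries, and 4.51% of all genes were separated upwards and 8.13% downwards in all 3. Rxra stood at a rank of 26.7 ± 12.04 in scramble, 62.02 ± 16 in CPT1a knockout, 57.5 ± 7.28 in KAT2a knockout and 56.3 ± 5.41 with acetate (SD, n = 3 each). Pprc1, a relative of the PGC-1 coactivators, stood at 39.3 ± 2.93, 86.7 ± 2.79, 68.3 ± 13.8 and 70.5 ± 13.1 in the same order. The differences of the 9 libraries from scramble were 35.9 for Pprc1, 31.9 for Ncoa2 and 31.8 for Rxra (exact permutation p = 0.00455 each, adjusted p = 0.0539), 20.7 for Ncoa1 (exact permutation p = 0.05, adjusted p = 0.192) and -23.7 for Nrip1 (exact permutation p = 0.0318, adjusted p = 0.146).

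Of 41 other PPAR target genes, 18 were called in all 12 libraries and 20 in none, beside 49.5% and 45.1% of all protein-coding genes. The uncalled ones included Fabp4 and Cd36, which carry and take up fatty acids, the lipoprotein lipase Lpl, and the lipid droplet proteins Plin1, Plin4 and Plin5. Among the 18, ranks were separated from scramble upwards for 2 and downwards for 2 in CPT1a knockout, 2 and 1 in KAT2a knockout, 1 and 1 with acetate, and 0 and 1 for the 9 libraries, and for 1 and 0 with acetate against CPT1a knockout. Over all genes, 14.3% to 17.1% were separated in each direction in the comparisons of 3 with 3 scramble libraries, so these counts lay near or below the background. The list includes Cpt1a itself, the gene targeted in the CPT1a knockout lines. Cpt1a was the gene separated upwards with acetate, at 30.7 points. In KAT2a knockout Cpt1a, at 27.3 points, and Acadl, at 7.46 points, were the genes separated upwards. Acadm, the medium-chain acyl-CoA dehydrogenase of β-oxidation, was the one separated in the same direction in the 3 comparisons with scramble. Its rank was 56.7 ± 7.28 in scramble, 12.7 ± 7.26 in CPT1a knockout, 38.2 ± 9.09 in KAT2a knockout and 36.8 ± 12.4 with acetate (SD, n = 3 each), and the difference of the 9 libraries from scramble was -27.5 points (exact permutation p = 0.0136, adjusted p = 0.0949).

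The genes whose promoter ranks followed those of the 4 called genes most closely over the 12 libraries were Atxn2l and Ints3 for Ppard (Pearson r = 0.973 and 0.971), Ddx41 and Relt for Ppargc1b (r = 0.855 and 0.834), Cpe and Acsl4 for Plin2 (r = 0.827 and 0.798), and Tbc1d8b and Dll4 for Ucp2 (r = 0.834 and 0.832). These are descriptions over libraries that share their groups and depths, and were picked as the highest of all genes.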

How the data were processed

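H3K9ac ChIPmentation peak lists of 12 libraries were analysed; the 12 input samples were not analysed here. According to the study's methods, the authors trimmed reads with fastq-mcf, used BWA for alignment to mm10 and Picard for duplicate removal. The submitters' processing notes instead name Bowtie2, SAMtools, deepTools and MACS2 with the builds mm10 and dm6. The antibody catalogue number also differs between the labels and the methods. The authors called each list on 1 library. The deposited fold enrichment is a ratio of summit pileup to local background, each peak also has a deposited -log10 p-value and a -log10 q-value (q of 0.01 or less), and the deposited score was 10 times -log10 q. None is scaled between libraries, and the Drosophila spike-in was not used here, so total H3K9ac could not be compared.

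Peaks on chromosome Y were set aside. Peaks were assigned to promoter windows (1 kb either side of each TSS, at least 1 bp of overlap) and gene bodies of GENCODE vM21, whose coordinates are those of GRCm38. A gene's strength was its highest fold enrichment as a rank percentile among the 10759 genes called in all 12 libraries, and its width the summed width of all peaks that overlap its windows. Groups were called separated where their values did not overlap. The test was a two-sided exact permutation of group means over 20 (3 against 3) or 220 (3 against 9) assignments, with Benjamini-Hochberg adjustment over all ranked genes. Calling depth, the only depth known, was recovered by inverting the MACS2 formulas for peaks with a -log10 p below 300. Python 3.11.15, NumPy 2.4.6, pandas 2.3.3 and SciPy 1.17.1 were used, and the functions were tested on simulated data. Members and lists were chosen with earlier results of these data known. All 9 members are named; list genes are named where separated in the same direction in the 3 comparisons with scramble (at most 6), and like genes are the 2 with the highest correlation.

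Alternatives were ranking by -log10 p, a 2 kb window, a -log10 q of at least 5, lists of equal length, equal depth with a -log10 p of at least 5, removal of the GC trend (50 bins), ranking of all genes, joining peaks within 500 bp, leaving out each library, and a block on replicate number. Same-numbered libraries did not deviate together (correlations of -0.06 to 0.07 over 18 pairs), so the numbers pair no samples.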

Additional observations from a re-analysis of the deposited data

How the results depend on the processing

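Each p for 3 against 3 libraries is 0.1 or more, the part of depth in the widths was not tested, and strength can be compared between libraries only as a rank. Of the 4 called genes, those with ranks that did not overlap numbered 1 in each comparison with scramble and 0 for acetate against CPT1a knockout. Ranked by -log10 p, the number was 2 for KAT2a knockout and 2 for acetate, and at equal calling depth 2 for acetate. At equal depth, 17.7% of all genes were separated upwards and 19.3% downwards with acetate. With the GC trend removed the number was 0 for CPT1a knockout, 2 for KAT2a knockout, 0 for acetate and 0 for the 9 libraries. Ppard then overlapped with scramble except in KAT2a knockout, where 13.7% of all genes were separated upwards and 15.0% downwards. Those with separated widths numbered 1, or 2 for KAT2a knockout. For CPT1a knockout the number was 3 with a 2 kb window, 2 with lists of equal length and 2 with peaks within 500 bp joined, and for acetate against CPT1a knockout 2 with lists of equal length. With joining, KAT2a knockout kept a number of 2, but Ppargc1b took the place of Ucp2. Joining also gave a median width difference of -790 bp for acetate. The causes were not tested.

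With a block on replicate number, a gene counted where all 3 same-numbered differences had 1 sign. This gave 2 genes in rank for each of the 4 comparisons with scramble, and in width 3 for CPT1a knockout and 2 for the 9 libraries, but the numbers do not pair the samples.

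Leaving out 1 library, the rank count ranged from 1 to 2 for CPT1a knockout (2 without scramble replicate 1), from 1 to 2 for KAT2a knockout (2 without any 1 scramble library or KAT2a knockout replicate 2), from 1 to 2 for acetate (2 without scramble replicate 2) and from 0 to 1 for acetate against CPT1a knockout (1 without acetate replicate 1). The width count ranged from 1 to 3 for CPT1a knockout (3 without scramble replicate 3, 2 without CPT1a knockout replicate 2) and from 1 to 3 for acetate against CPT1a knockout (3 without acetate replicate 2, 2 without CPT1a knockout replicate 2). The median width difference ranged from -1194 bp (without KAT2a knockout replicate 2) to 5.33 bp (without its replicate 3) in KAT2a knockout, from -931 bp (without scramble replicate 3) to 258 bp (without acetate replicate 2) with acetate, and from -1042 bp (without scramble replicate 3) to -197 bp (without scramble replicate 1) for the 9 libraries. Of the values recomputed, 466 of the group summaries and 666 of the single-gene values kept their call, and 38 group summaries moved. Among the single-gene values, 23 gained and 4 lost a separation, and 7 shifted in value without either. None reversed a called direction.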

Other observations

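Of the 41 other PPAR target genes, 3 were called in only part of the libraries, beside 5.37% of all protein-coding genes. Scd1, a desaturase of fatty acids, was called in 11, Vldlr, a lipoprotein receptor, in 4, and Fgf21, a hormone of fasting, in 1.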
